A study of Homo sapiens with 15 samples.

Results

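The genes that encode the factors of translation initiation and elongation were described in LNCaP prostate cancer cells given an androgen with or without darolutamide. Members were the rows of the expression table whose gene name begins with EIF1 to EIF6, EEF1 or EEF2, without the EIF2AK kinases, antisense and intronic transcripts and pseudogenes, which left 58 of 17272 genes in 17 complexes or functional groups. LNCaP is an androgen-sensitive human line derived from a metastasis. All cells were first starved of steroids by 48 h in charcoal-stripped serum and then received the synthetic androgen R1881 at 1 nM for 22 h. In 5 libraries R1881 was given with 2 µM darolutamide, an antiandrogen (the combination), and in 10 libraries R1881 was given with DMSO (called R1881 here). Each library was poly(A) RNA, and a culture of 1 cell line is the only model used.

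Translation begins when eIF2, charged with GTP and the initiator tRNA, joins the small ribosomal subunit together with eIF1, eIF1A, eIF3 and eIF5. The cap-binding complex eIF4F, made of the cap-binding protein eIF4E, the helicase eIF4A and the scaffold eIF4G, brings in the mRNA, and eIF5B joins the large subunit. During elongation eEF1A delivers the aminoacyl-tRNAs and eEF2 moves the ribosome by 1 codon. Signals reach this machinery mainly through phosphorylation of eIF2, which blocks its exchange factor eIF2B, and through the kinase mTOR, which releases eIF4E from the 4E-binding proteins. Many mRNAs of elongation factors, of some initiation factors and of ribosomal proteins start with a C followed by a run of pyrimidines, the terminal oligopyrimidine (TOP) motif, through which mTOR and LARP1 control their translation and stability.

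The members split into both directions, by small amounts. By limma's trend test on log2(CPM + 0.5), with p-values adjusted over all genes by the Benjamini-Hochberg method and a threshold of 0.05, 23 members were lower with the combination, 15 were higher and 20 did not pass. These were 39.7% and 25.9% of the members, against 23.7% lower and 22.8% higher over the 17272 genes. Since 57 of the 58 members had a mean of at least 10 CPM, the closer background is that of the 10366 genes at this level, of which 31.5% were lower and 20.4% were higher. The groups did not overlap in 13 members that were lower (12.6% of all genes) and in 9 that were higher (10.8% of all genes). Scaling by library totals, which raises the median of all genes by 0.065 on the log2 scale, gave 16 members lower and 19 higher, beside 17.5% and 30.8% of all genes. The median log2 fold change of the members was -0.050 and ranged from -0.45 to 0.78. Of the 38 members called, 31 had an absolute log2 fold change under 0.3 and 1 reached 0.5. The call was kept in all 27 alternative analyses by 26 members, 14 of them lower and 12 higher. The same count over all genes is not given here, so these numbers have no background.

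**Figure D1:**
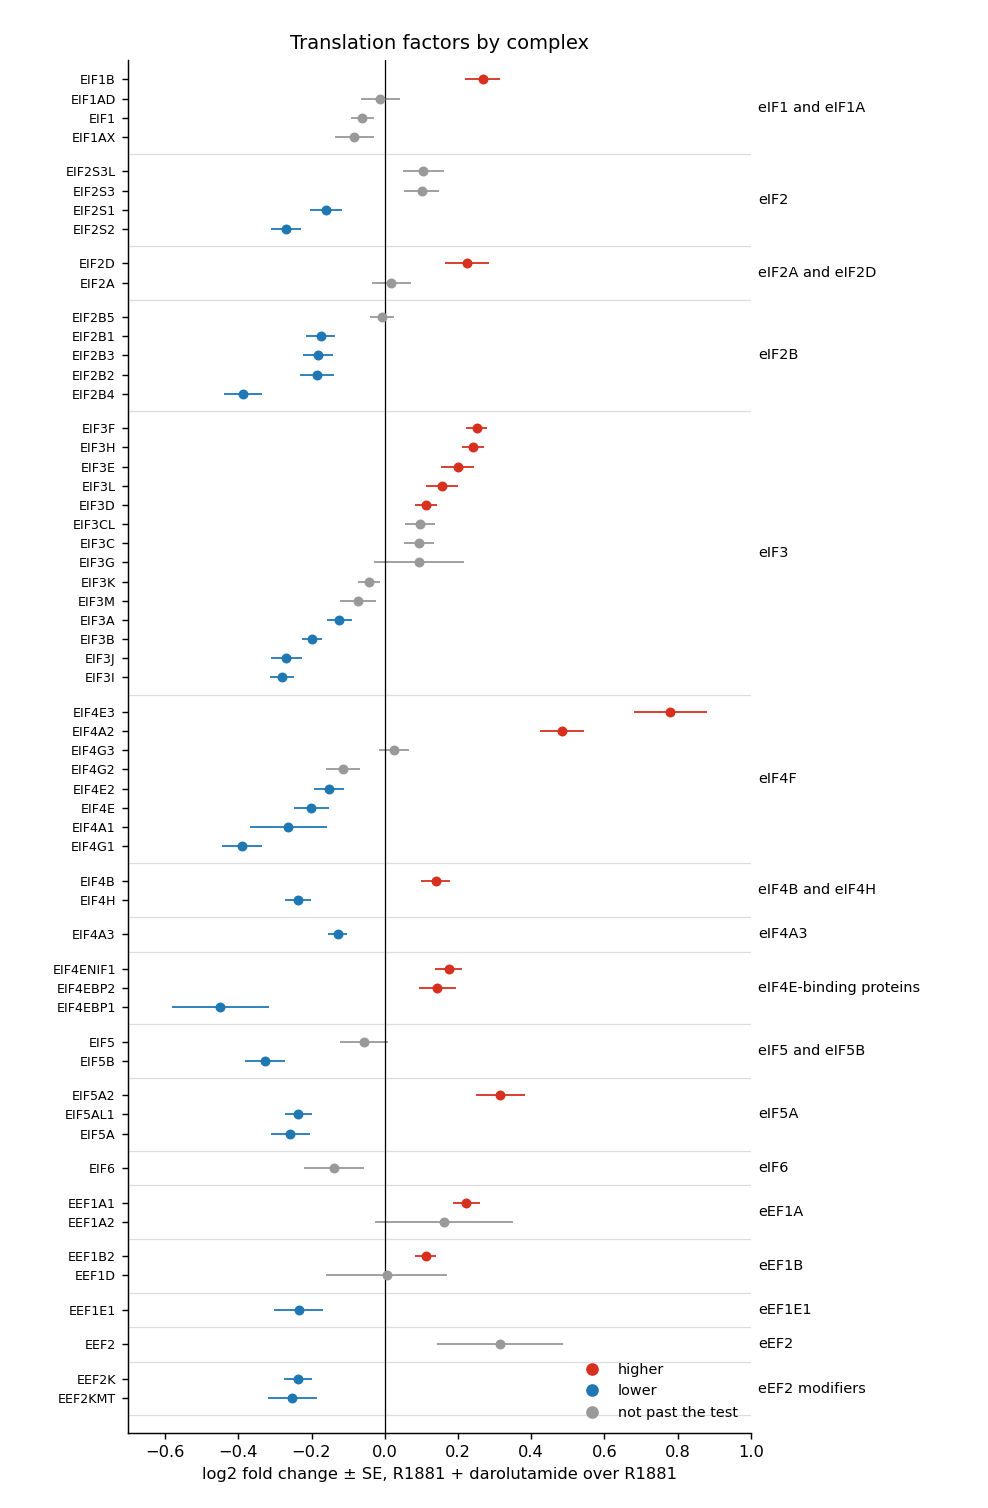
Log2 fold change of each member, the combination over R1881, by complex, with the standard error from limma. Red points are higher, blue points are lower and grey points did not pass the test; EIF1AY, which is Y-linked, is not shown. EIF4E3 (0.78) and EIF4A2 (0.48) lie farthest to the right, and EIF4EBP1 (-0.45), EIF4G1 (-0.39) and EIF2B4 (-0.39) farthest to the left.

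As a check of the treatment, the 7 androgen-induced genes chosen were all lower, with a summed level of 2194 to 2353 CPM in the combination libraries and 6654 to 7382 CPM in the R1881 libraries. The libraries held 21870398 to 25317567 reads with the combination and 15830745 to 24316740 reads with R1881. The combination libraries are numbered 86 to 90 and the R1881 libraries 51 to 55 and 71 to 75, so that treatment and run of library numbers cannot be told apart. Between the R1881 runs themselves 2 members were called, EIF4A2 (log2 difference 0.21, adjusted p = 0.0127, 71 to 75 over 51 to 55) and EIF5 (-0.23, adjusted p = 0.0174), where 3.10% of all genes were. The 8 prostate luminal markers reported here were all listed, and their summed level was 3900.0 to 4275 CPM with the combination and 7387 to 8715 CPM with R1881 (6 lower, 1 higher). Of 6 fibroblast markers 3 were listed and all were higher, with sums of 13.5 to 30.6 CPM with the combination and 6.36 to 10.5 CPM with R1881, led by COL3A1 (7.57 to 9.38 CPM with the combination and 0.943 to 2.51 CPM with R1881). Of 3 endothelial markers only VWF was listed, at 3.56 to 4.10 CPM with the combination and 2.08 to 2.84 CPM with R1881, and none of 4 immune markers was. The part of these markers in the results was not tested. In bulk RNA, fewer cells of a kind and less RNA per cell cannot be told apart.

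The members also differed by the first bases of their transcripts. In RefSeq (GRCh38.p14), 46 members have an annotated start in the table used here. Of these, 12 (26.1%) start with a C followed by at least 4 C or T, against 7.15% of the 9922 other genes of the expression table. A gene was counted if any of its annotated starts had this pattern, and of the 35116 single starts 4.07% had it. Among the 12, EEF1B2 has 2 annotated starts. Windows of 30 bases around the start are shown for 5 of the 12 members, with the pyrimidine tract in capitals. They were chosen because they span eEF1A, eEF2, eIF4A, eIF3 and eIF2D. The first transcribed base of each window is the first capital. The windows lie at chr6:73521018-73521047 on the minus strand for EEF1A1, chr19:3985449-3985478 on the minus strand for EEF2, chr3:186783562-186783591 on the plus strand for EIF4A2, chr11:7987322-7987351 on the plus strand for EIF3F and chr1:206612451-206612480 on the minus strand for EIF2D.
EEF1A1: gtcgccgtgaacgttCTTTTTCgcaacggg
EEF2: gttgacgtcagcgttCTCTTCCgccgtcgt
EIF4A2: gttgggcgccgctgtCTTTTCagtcgggcg
EIF3F: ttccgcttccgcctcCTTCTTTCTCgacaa
EIF2D: ggtttccagccgggcCCTTTTCgcggccgg

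Windows of 4 members that were lower are shown for contrast, with no capitals because no such tract begins at the annotated start, which is base 16 of each window. They lie at chr1:32222392-32222421 on the plus strand for EIF3I, chr7:74174341-74174370 on the plus strand for EIF4H, chr2:99337374-99337403 on the plus strand for EIF5B and chr4:98929119-98929148 on the minus strand for EIF4E.
EIF3I: accttttccggtcttactcacgttgcggcc
EIF4H: ccttcctcgctcaccctggttcctctcgga
EIF5B: gcgcactgagaactcacaccatatgtgtcc
EIF4E: ccttctggagcggttgtgcgatcagatcga

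Of the 12 members with the pyrimidine start, 7 were higher (EEF1A1, EEF1B2, EIF2D, EIF3D, EIF3F, EIF4A2 and EIF4B), 0 were lower and the other 5 did not pass (EEF2, EIF2A, EIF2S3, EIF3K and EIF3M). After a correction for GC content EEF2 (0.35, adjusted p = 6.14e-04 by limma) and EIF2S3 (0.12, adjusted p = 2.20e-04) passed as higher and EIF3M as lower (-0.058, adjusted p = 0.0427). The median log2 fold change of the 12 members was 0.13 (0.20 with scaling by library totals and 0.12 after the GC correction). The 34 members with another annotated start had 5 higher and 19 lower, with a median of -0.16 (-0.084 and -0.16 under the same alternatives). The 5 higher were EIF1B, EIF4E3, EIF4EBP2, EIF4ENIF1 and EIF5A2, and EIF4E3 had the largest log2 fold change of all members (0.78). Among the 12 members with no start in the table, 3 were higher and 4 were lower. In the other genes of the table the difference between start classes was smaller. Of 709 other genes with the pyrimidine start 27.2% were higher and 20.7% were lower, and of 9213 with another start 24.4% were higher and 26.9% were lower. The 44 ribosomal protein genes among the 709 had 20 higher and 1 lower, at a median of 0.099, and without them 26.0% of 665 genes were higher and 22.0% were lower. This split was chosen after the values were seen, so it is a description without a test. The letters are those of the annotated start, and the start used in these cells was not measured.

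**Figure D2:**
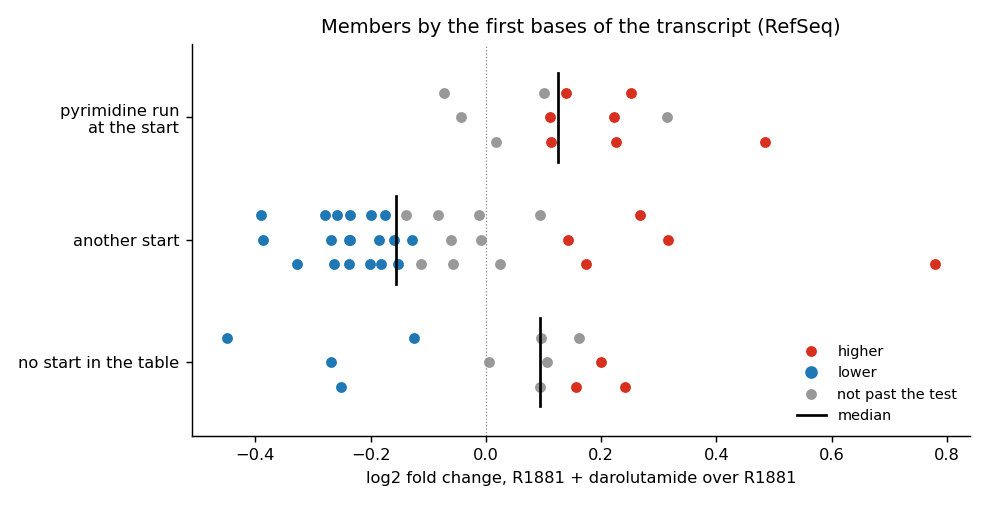
Log2 fold change of the members, the combination over R1881, by the annotated start in RefSeq, with 1 point per member and a black line at the median (0.13 with the pyrimidine run, -0.16 with another start, 0.095 with no start in the table). No member with the pyrimidine run is blue (lower); EIF1AY, which has another start, is not drawn.

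Among the genes of elongation EEF1A1 and EEF1B2 were higher, while EEF1E1 and the eEF2 modifiers EEF2K and EEF2KMT were lower. EEF1A1, the main eEF1A gene, had 8376, 7968, 8385, 7489.7 and 8094 CPM in the combination libraries, against 6440.3 to 7331 CPM (median 6948) in the R1881 libraries. The groups did not overlap (log2 fold change 0.22 ± 0.037 (SE), adjusted p = 7.62e-05). It was the most abundant member per kilobase of transcript, at 2296 CPM per kb with the combination and 1968 CPM per kb with R1881, and it took 0.796% ± 0.0432 of all reads with the combination and 0.649% ± 0.0277 with R1881 (SD, n = 5 and 10). All members together took 2.28% ± 0.0513 of the reads with the combination and 2.03% ± 0.0357 with R1881. The 20 most abundant genes of the table took 7.77% ± 0.287 with the combination and 6.59% ± 0.115 with R1881, a shift whose part in these shares was not tested. EEF1A1 is uncertain as a single gene, since 22 near-identical copies listed as pseudogenes summed to 15290 CPM with the combination and 13120 CPM with R1881, and 50-base reads can be split among them. EEF1B2, a nucleotide exchange subunit that recharges eEF1A with GTP, was higher as well, at 338, 344, 345, 323 and 339 CPM in the combination libraries, against 298 to 326 CPM (median 314) in the R1881 libraries. The lowest combination library lay within the R1881 range (log2 fold change 0.11 ± 0.029 (SE), adjusted p = 0.00380). EEF1B2 is also uncertain as a single gene, since 5 copies listed as pseudogenes summed to 476 CPM with the combination and 435 CPM with R1881.

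EEF1A2, the paralog of EEF1A1 typical of muscle and nerve, had 345, 355, 246, 746 and 400.0 CPM in the combination libraries, against 279 to 518 CPM (median 334) in the R1881 libraries. The groups overlapped and the gene did not pass (log2 fold change 0.16 ± 0.19 (SE), adjusted p = 0.522) in the values as deposited, although it passed as higher after the GC correction (0.14, adjusted p = 0.00187). EEF1D, another exchange subunit, did not pass as deposited (0.0058, adjusted p = 0.982). The ratio of EEF1A2 to EEF1A1 differed by -0.060 (adjusted p = 0.814) between the groups by the exact permutation test, two-sided, over 3003 assignments of the libraries, with adjustment over 12 ratios. EEF1E1, also known as AIMP3 and part of the multisynthetase complex, was lower at 15.6, 16.9, 18.6, 14 and 17.1 CPM in the combination libraries, against 17.5 to 21.9 CPM (median 18.98) in the R1881 libraries. The groups overlapped in this gene (log2 fold change -0.24 ± 0.068 (SE), adjusted p = 0.00836), whose call was lost with scaling by library totals.

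EEF2, the translocation factor, had 2061, 2146, 1527, 4327 and 2141 CPM in the combination libraries, against 1453 to 2564 CPM (median 1778) in the R1881 libraries. Only combination replicate 4 lay above the R1881 range, and combination replicate 3 lay near its lower end. The difference did not pass (log2 fold change 0.31 ± 0.17 (SE), adjusted p = 0.150) in the values as deposited. It was 0.085 (adjusted p = 0.548) without combination replicate 4 and passed at 0.46 (adjusted p = 0.0313) without replicate 3. After a correction for GC content within each library it did (0.35, adjusted p = 6.14e-04). EEF2K, the kinase that inactivates eEF2 by phosphorylation, had 47.03, 48.3, 45.4, 47.6 and 49.4 CPM in the combination libraries, against 51.1 to 60.05 CPM (median 56.5) in the R1881 libraries. All combination libraries lay below all R1881 libraries (log2 fold change -0.24 ± 0.037 (SE), adjusted p = 4.21e-05). The ratio of EEF2K to EEF2 was lower by the exact permutation test, at -0.55 (adjusted p = 0.0165), although the groups overlapped. It did not pass without combination replicate 4 (-0.32, adjusted p = 0.0683 by the permutation test) or against the R1881 libraries 71 to 75 only (-0.42, adjusted p = 0.200). EEF2KMT, a lysine methyltransferase of eEF2, was also lower (-0.25, adjusted p = 0.00490), a call lost against R1881 libraries 51 to 55 alone.

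In the cap-binding complex the main scaffold and the cap-binding protein were lower, and the homologs EIF4E3 and EIF4A2 were higher. EIF4G1, the scaffold, had 596, 579.7, 539, 729 and 622 CPM in the combination libraries, against 750.3 to 853 CPM (median 804) in the R1881 libraries. Every combination library was below the R1881 range (log2 fold change -0.39 ± 0.054 (SE), adjusted p = 1.09e-05). EIF4E, the cap-binding protein, had 132, 139, 133, 115 and 126 CPM in the combination libraries, against 133 to 162 CPM (median 149.8) in the R1881 libraries. Here 2 combination libraries reached the lower end of the R1881 range (log2 fold change -0.20 ± 0.048 (SE), adjusted p = 0.00234). EIF4E2, a homolog linked to translational repression, was lower (-0.15, adjusted p = 0.00509), with the call lost under scaling by library totals and against the R1881 libraries 71 to 75 only.

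EIF4E3, a cap-binding homolog, had the largest log2 fold change of the members, at 17.6, 19.1, 18.4, 16.2 and 18.3 CPM in the combination libraries, against 8.19 to 13.2 CPM (median 10.3) in the R1881 libraries. The ranges were apart (log2 fold change 0.78 ± 0.10 (SE), adjusted p = 4.29e-06), with means of 17.9 ± 1.12 CPM with the combination and 10.3 ± 1.69 CPM with R1881 (SD, n = 5 and 10). EIF4A2, a paralog of the main helicase EIF4A1, had 624.6, 631, 676, 559 and 650.3 CPM in the combination libraries, against 393 to 501 CPM (median 449) in the R1881 libraries. Every combination library was above every R1881 library (log2 fold change 0.48 ± 0.060 (SE), adjusted p = 2.75e-06). The difference between the R1881 runs in this gene, given above, was 0.21, and against either run alone the call was kept.

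EIF4A1 itself cannot be read from the table. It was listed at 3.47, 3.03, 3.43, 3.21 and 2.49 CPM in the combination libraries, against 2.85 to 5.15 CPM (median 3.83) in the R1881 libraries, while 6 rows of its processed copies (EIF4A1P) summed to 831 CPM with the combination and 957 CPM with R1881. The annotation also gives a read-through gene, SENP3-EIF4A1, that overlaps it on the same strand. Its call (-0.26, adjusted p = 0.0476) was lost in 17 of the 27 alternatives. EIF4G2, an eIF4G homolog without the cap-binding site, did not pass (-0.11, adjusted p = 0.0564), nor did EIF4G3, the second scaffold (0.025, adjusted p = 0.653).

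The paralog ratios put these contrasts on a scale that, apart from the pseudocount, does not depend on library scaling. The log2 ratio of EIF4E3 to EIF4E was higher by 0.98 (adjusted p = 7.99e-04), without overlap between groups. The ratio of EIF4G3 to EIF4G1 was higher by 0.42 (adjusted p = 0.00343) and that of EIF4G2 to EIF4G1 by 0.28 (adjusted p = 0.0249), both with overlap. The call for EIF4G2 to EIF4G1 was lost against the R1881 libraries 51 to 55 only (0.20) and without combination replicate 1 (0.26), 2 (0.26) or 3 (0.21). For EIF4E2 to EIF4E the difference was 0.049 (adjusted p = 0.129), and it passed without combination replicate 2 (0.073, adjusted p = 0.0225 by the permutation test). That of EIF4A2 to EIF4A1 was 0.75 (adjusted p = 7.99e-04), with the limit on EIF4A1 just given. Of the 12 ratios 9 passed, and an unadjusted p of 0.000333 is the smallest that the design allows.

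**Figure D3:**
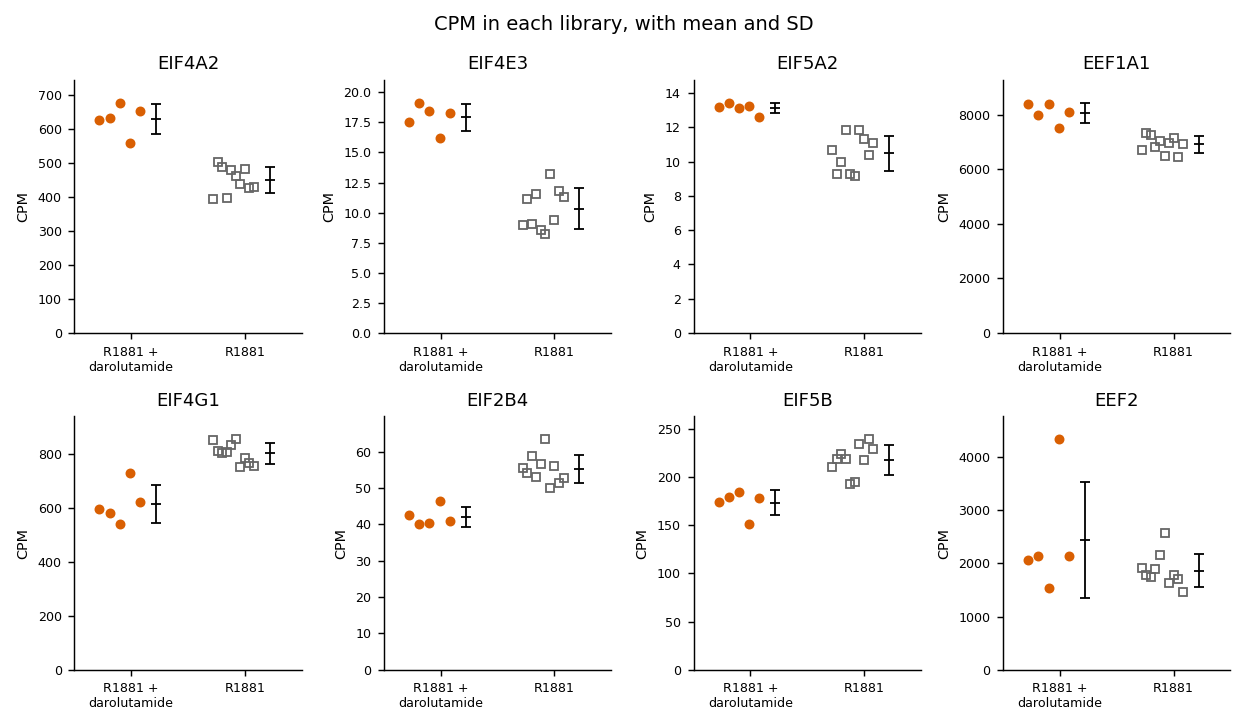
CPM of 8 members in each library, with 5 combination libraries (orange circles) left of 10 R1881 libraries (grey squares) and black bars for mean ± SD. EIF4A2, EIF4E3, EIF5A2 and EEF1A1 lie higher with the combination and EIF4G1, EIF2B4 and EIF5B lower, each without overlap, while for EEF2 combination replicate 4 (4327 CPM) stands above all other libraries.

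The helpers and inhibitors of eIF4F also moved in both directions. EIF4H, which stimulates the helicase, had 329, 338, 307, 370.4 and 327 CPM in the combination libraries, against 383 to 410.4 CPM (median 392) in the R1881 libraries. The groups did not overlap (log2 fold change -0.24 ± 0.035 (SE), adjusted p = 2.13e-05). EIF4B, which has the same role and the pyrimidine start, was higher at 1063, 1035, 1102, 927 and 1043 CPM in the combination libraries, against 852 to 969 CPM (median 947) in the R1881 libraries. Combination replicate 4 lay within the R1881 range and the other 4 lay above it (log2 fold change 0.14 ± 0.039 (SE), adjusted p = 0.00663). EIF4B is uncertain as a single gene too, since 7 copies listed as pseudogenes summed to 816 CPM with the combination and 724.5 CPM with R1881.

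EIF4EBP1, which encodes the 4E-binding protein that mTOR inactivates, had 27.6, 28.2, 20.5, 41.9 and 29.9 CPM in the combination libraries, against 31.7 to 51.4 CPM (median 38.6) in the R1881 libraries. Combination replicate 4 lay within the R1881 range and the other 4 lay below it (log2 fold change -0.45 ± 0.13 (SE), adjusted p = 0.0101). Against R1881 libraries 51 to 55 alone this call was lost (-0.32, adjusted p = 0.123). The 4E-binding protein gene EIF4EBP2 was higher (log2 fold change 0.14 ± 0.051 (SE), adjusted p = 0.0279), but 5 alternatives lost this call. Relative to EIF4E, EIF4EBP2 was higher by 0.34 (adjusted p = 7.99e-04) without overlap, and EIF4EBP1 differed by -0.25 (adjusted p = 0.238). Without combination replicate 4 the ratio of EIF4EBP1 to EIF4E passed (-0.42, adjusted p = 0.0386 by the permutation test). EIF4ENIF1, the transporter that carries eIF4E into the nucleus and to processing bodies, had 27.5, 27.3, 28.03, 26.9 and 27.4 CPM in the combination libraries, against 22.8 to 25.2 CPM (median 24.4) in the R1881 libraries. All combination libraries were above the R1881 range (log2 fold change 0.17 ± 0.036 (SE), adjusted p = 6.24e-04). EIF4A3, a helicase of the exon junction complex rather than of eIF4F, was lower without overlap (log2 fold change -0.13 ± 0.025 (SE), adjusted p = 3.78e-04), with means of 112 ± 2.56 CPM with the combination and 122 ± 1.85 CPM with R1881, but not under scaling by library totals.

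In the ternary complex and its exchange factor every call in the values as deposited was lower. EIF2S1, the subunit whose phosphorylation blocks initiation, had 221, 226, 231, 197 and 217 CPM in the combination libraries, against 219 to 269.8 CPM (median 242) in the R1881 libraries. The groups overlapped (log2 fold change -0.16 ± 0.044 (SE), adjusted p = 0.00652), and the call was lost with scaling by library totals and against the R1881 libraries 71 to 75 only. EIF2S2, the beta subunit, had 163, 167, 174, 150.4 and 166 CPM in the combination libraries, against 183 to 215 CPM (median 195) in the R1881 libraries. No combination library reached the R1881 range (log2 fold change -0.27 ± 0.041 (SE), adjusted p = 3.06e-05).

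EIF2S3, the subunit that binds GTP and the initiator tRNA, had 309, 307, 324, 260.1 and 309.5 CPM in the combination libraries, against 253 to 298 CPM (median 284) in the R1881 libraries. Combination replicate 4 was within the R1881 range and the other 4 were above it (log2 fold change 0.10 ± 0.047 (SE), adjusted p = 0.0922). After the GC correction EIF2S3 passed as higher (0.12, adjusted p = 2.20e-04), so that the subunits then differed in direction. It also passed as higher with scaling by library totals (0.17, adjusted p = 0.00668 by limma). The EIF2S3 retrocopy EIF2S3L did not pass as deposited (0.11, adjusted p = 0.135) but passed as higher with that scaling (0.18, adjusted p = 0.0154).

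Of the 5 subunits of eIF2B, the guanine nucleotide exchange factor of eIF2, 4 were lower, with a median log2 fold change of -0.18 (-0.11 with scaling by library totals). EIF2B4, the delta subunit, had 42.6, 40.00, 40.3, 46.5 and 40.8 CPM in the combination libraries, against 49.9 to 63.3 CPM (median 54.8) in the R1881 libraries. The highest combination library was below the lowest R1881 library (log2 fold change -0.39 ± 0.053 (SE), adjusted p = 8.58e-06). EIF2B1 (-0.17, adjusted p = 0.00139) and EIF2B3 (-0.18, adjusted p = 0.00145) were lower without overlap, and EIF2B2 (-0.19, adjusted p = 0.00336) with overlap and not under scaling by library totals. EIF2B5, the catalytic subunit, had means of 73.5 ± 2.81 CPM with the combination and 73.9 ± 2.08 CPM with R1881 (-0.0080, adjusted p = 0.866). The ratio of EIF2B5 to EIF2S1 was higher by 0.15 (adjusted p = 0.00333), with overlap.

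EIF2D, a factor that can deliver tRNA without GTP and acts in ribosome recycling, had 51.6, 50.4, 50.7, 49.7 and 53.1 CPM in the combination libraries, against 35.8 to 48.8 CPM (median 43.97) in the R1881 libraries. The ranges did not overlap (log2 fold change 0.23 ± 0.061 (SE), adjusted p = 0.00531). EIF2A, a separate initiator tRNA-binding protein and not a subunit of eIF2, did not pass (0.018, adjusted p = 0.814).

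The largest complex was eIF3, the scaffold on the small subunit, and of its 14 genes 4 were lower and 5 were higher. EIF3I, a subunit of the core shared with yeast, had 388, 363, 388, 372 and 391 CPM in the combination libraries, against 423 to 494 CPM (median 465) in the R1881 libraries. The groups did not overlap (log2 fold change -0.28 ± 0.033 (SE), adjusted p = 1.80e-06). EIF3B, the RNA-binding core scaffold, had means of 281 ± 9.79 CPM with the combination and 322 ± 7.72 CPM with R1881 and no overlap (log2 fold change -0.20 ± 0.027 (SE), adjusted p = 1.05e-05). EIF3J, the loosely bound subunit, was lower without overlap as well (log2 fold change -0.27 ± 0.043 (SE), adjusted p = 5.36e-05), and EIF3A, the largest subunit, was lower with overlap (-0.12, adjusted p = 0.00687), a call lost under scaling by library totals and against the R1881 libraries 71 to 75 only.

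EIF3F, a subunit with an MPN domain, had 273, 257, 260.3, 256 and 269 CPM in the combination libraries, against 214 to 234 CPM (median 218) in the R1881 libraries. All combination libraries were above the R1881 range (log2 fold change 0.25 ± 0.029 (SE), adjusted p = 1.15e-06). EIF3H, the other MPN subunit, had 267, 269, 264, 246 and 255 CPM in the combination libraries, against 211 to 229 CPM (median 219) in the R1881 libraries. It did not overlap either (log2 fold change 0.24 ± 0.029 (SE), adjusted p = 2.34e-06). EIF3E (0.20, adjusted p = 0.00135), EIF3L (0.16, adjusted p = 0.00641) and EIF3D (0.11, adjusted p = 0.00503), of which EIF3D can itself bind the cap, were higher with overlap.

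EIF3M (-0.073, adjusted p = 0.241), EIF3K (-0.043, adjusted p = 0.271) and EIF3G (0.093, adjusted p = 0.575) did not pass. EIF3C (0.094, adjusted p = 0.0708) and EIF3CL (0.10, adjusted p = 0.0675) did not either, and these near-identical copies had almost the same values in each library, so they are not independent measurements, although both are counted here. All 4 lower genes are among the 7 that encode subunits shared with budding yeast (EIF3A, EIF3B, EIF3C, EIF3CL, EIF3G, EIF3I and EIF3J), which had a median of -0.12 (-0.052 with scaling by library totals). All 5 higher genes are among the 7 whose subunits budding yeast lacks (EIF3D, EIF3E, EIF3F, EIF3H, EIF3K, EIF3L and EIF3M), which had a median of 0.16 (0.23 with that scaling). Under other processing the split was less complete. After the GC correction EIF3C (0.12), EIF3CL (0.13) and EIF3G (0.13), of the first 7, passed as higher and EIF3M (-0.058), of the others, as lower. With scaling by library totals EIF3C and EIF3CL passed as higher (adjusted p = 0.00221 and 0.00208 by limma). This grouping was made after the values were seen and has no test.

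**Figure D4:**
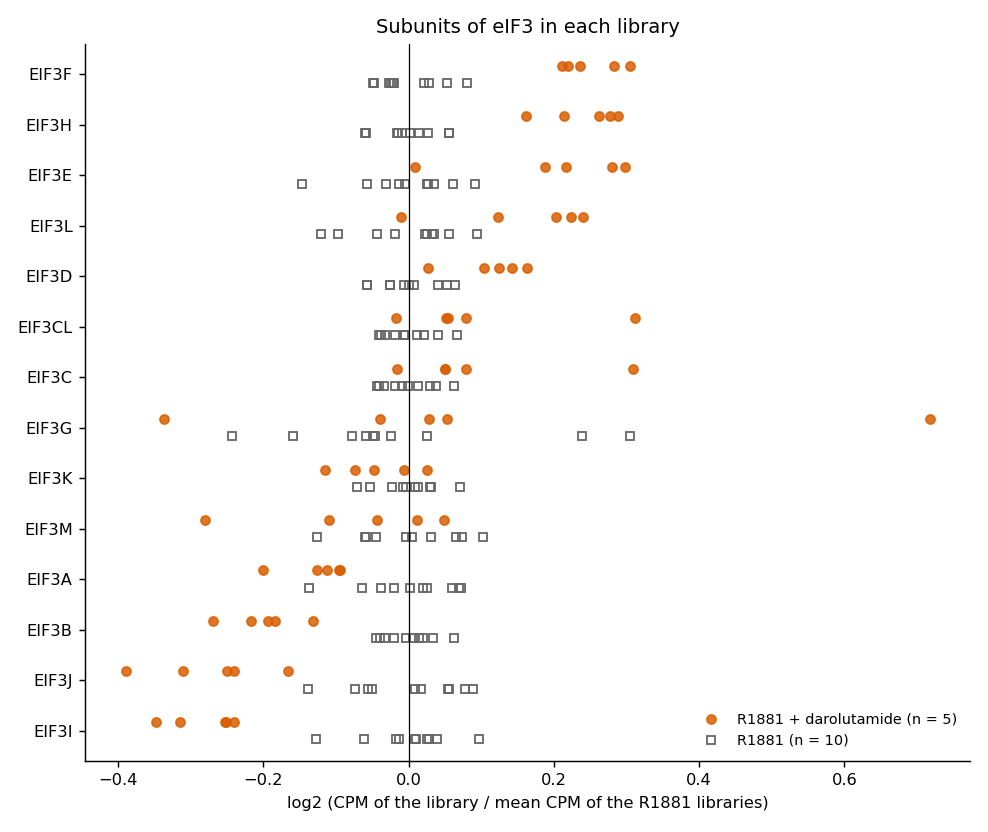
Level of each eIF3 gene in each library as log2 of its CPM over the mean CPM of the R1881 libraries, with combination libraries as orange circles above R1881 libraries as grey squares. EIF3F and EIF3H lie right of the R1881 libraries and EIF3B, EIF3J and EIF3I left of them without overlap, while for EIF3G, EIF3C and EIF3CL combination replicate 4 is the point farthest to the right.

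Of the members grouped under eIF1 and eIF1A, EIF1 (-0.061, adjusted p = 0.133), EIF1AX (-0.083, adjusted p = 0.215) and EIF1AD (-0.012, adjusted p = 0.881) did not pass, and neither did EIF1AY, whose level is not given. After the GC correction EIF1 (-0.067, adjusted p = 0.0136 by limma) and EIF1AX (-0.13, adjusted p = 2.6e-06) passed as lower. EIF1B, a close homolog of EIF1, had 40.3, 41.9, 41.9, 34.6 and 38.7 CPM in the combination libraries, against 30.5 to 34.2 CPM (median 33.2) in the R1881 libraries. The lowest combination library was above the highest R1881 library (log2 fold change 0.27 ± 0.048 (SE), adjusted p = 1.64e-04), and the ratio of EIF1B to EIF1 was higher by 0.33 (adjusted p = 7.99e-04). EIF5, which triggers GTP hydrolysis on eIF2, did not pass (-0.057, adjusted p = 0.508). EIF5B, the GTPase of subunit joining, had 174, 179, 185, 151 and 178 CPM in the combination libraries, against 192 to 239 CPM (median 218) in the R1881 libraries. No library overlapped between the groups (log2 fold change -0.33 ± 0.055 (SE), adjusted p = 8.37e-05).

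EIF5A, whose hypusine-modified product resolves stalled ribosomes, had 315, 315, 288, 377 and 324 CPM in the combination libraries, against 360.3 to 438 CPM (median 385) in the R1881 libraries. Combination replicate 4 lay within the R1881 range and the other 4 lay below it (log2 fold change -0.26 ± 0.053 (SE), adjusted p = 6.07e-04). EIF5AL1, a retrocopy that shares reads with EIF5A, was lower too (-0.24, adjusted p = 4.52e-05). EIF5A2, the paralog often amplified in tumours, had 13.2, 13.4, 13.1, 13.2 and 12.6 CPM in the combination libraries, against 9.18 to 11.9 CPM (median 10.5) in the R1881 libraries. It moved the other way without overlap (log2 fold change 0.32 ± 0.068 (SE), adjusted p = 8.94e-04), and the ratio of EIF5A2 to EIF5A was higher by 0.57 (adjusted p = 7.99e-04). EIF6, which keeps the large subunit from joining too early, had means of 53.6 ± 7.97 CPM with the combination and 58.7 ± 5.76 CPM with R1881 and did not pass (-0.14, adjusted p = 0.180). After the GC correction EIF6 passed as lower (-0.099, adjusted p = 0.00699 by limma).

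Within the combination, the spread of several members moved with the GC content of their transcripts. Combination replicate 4, over the mean of the other 4 combination libraries, was 2.22 times as high for EEF1A2, 2.20 for EEF2, 2.08 for EEF1D, 1.72 for EIF3G and 1.58 for EIF4EBP1, the 5 members of highest GC content (58.9% to 64.1%). The lowest ratio was 0.821 for EEF1E1, at 40.0% GC. The 2 members of lowest GC content were EIF1AX (36.3%), with a ratio of 0.848, and EIF5A2 (37.0%), with a ratio of 1.01. Over the 57 members with a GC value, the correction for GC content gave 29 lower and 21 higher, and no call was lost. Calls also rose in each direction over the 13955 corrected genes, compared with the larger set of 17272 genes as deposited. The rise was therefore not limited to the members. The share of the corrected genes called is not given here, so the 29 and 21 have no background.

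**Figure D5:**
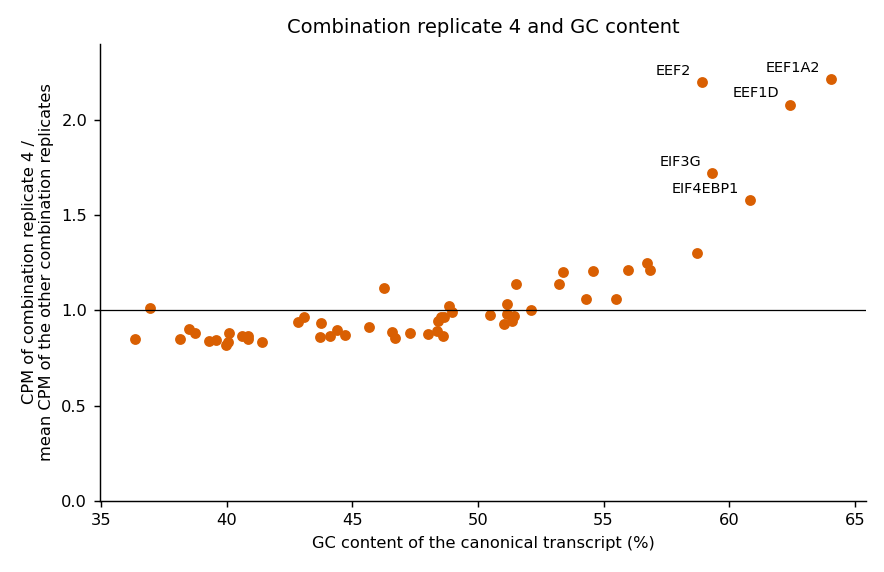
CPM of combination replicate 4 divided by the mean CPM of the other 4 combination libraries, against GC content, with 1 point per member. The GC content is pooled over all annotated transcripts of a gene, although the axis label names the canonical transcript. The 5 named members lie between 1.58 and 2.22 times, and the line marks equal values.

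Around the members, 61 further genes of translation and its control in 10 lists had 19 lower and 14 higher, with a median log2 fold change of -0.067. These were 31.1% and 23.0% of the 61, near the 31.5% lower and 20.4% higher of all genes with a mean of at least 10 CPM. Among mTORC1 and its inputs, 2 of 10 were lower and 3 were higher. MTOR, the kinase itself, had 79.1 to 88.9 CPM with the combination and 133 to 153 CPM with R1881 and no overlap (log2 fold change -0.78 ± 0.036 (SE), adjusted p = 4.04e-12), and DEPTOR, its inhibitor, had 13.4 to 14.8 CPM with the combination and 7.43 to 9.07 CPM with R1881 without overlap in the other direction (log2 fold change 0.76 ± 0.057 (SE), adjusted p = 4.29e-09). Of the S6 kinases, MNK kinases and LARP1, 2 of 6 were lower and 1 was higher, with MKNK1, a kinase of eIF4E, at -0.19, adjusted p = 5.95e-04, and RPS6KB2, an S6 kinase, at -0.51, adjusted p = 0.00492.

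Of the 4 eIF2 kinases 1 was lower and 2 were higher, with EIF2AK3, the kinase of the endoplasmic reticulum stress response known as PERK, at 40.9 to 50.2 CPM with the combination and 57.9 to 63.2 CPM with R1881 (log2 fold change -0.42 ± 0.045 (SE), adjusted p = 5.20e-07), and EIF2AK1, the haem-regulated kinase, at 0.12, adjusted p = 0.0251, a call lost without combination replicate 1 or 3. Of 6 genes of the eIF2 phosphatase and the stress output, 2 were lower and 1 was higher. PPP1R15B, the constitutive subunit that directs the phosphatase to eIF2, had 84.7 to 103 CPM with the combination and 136 to 158 CPM with R1881 (log2 fold change -0.62 ± 0.049 (SE), adjusted p = 8.44e-09), and DDIT3, a transcription factor downstream of eIF2 phosphorylation, had 19.3 to 23.6 CPM with the combination and 12.96 to 17.2 CPM with R1881 (log2 fold change 0.48 ± 0.062 (SE), adjusted p = 5.03e-06).

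Of 3 termination factors 2 were lower and 1 was higher. GSPT1, which encodes eRF3, had 344 to 422 CPM with the combination and 490.1 to 596 CPM with R1881 (log2 fold change -0.51 ± 0.052 (SE), adjusted p = 2.48e-07), and ETF1, which encodes eRF1, had 186 to 221 CPM with the combination and 229 to 283 CPM with R1881 (log2 fold change -0.31 ± 0.048 (SE), adjusted p = 3.37e-05). Of 8 other initiation cofactors 6 were lower and 0 were higher, among them the helicase DDX3X (-0.25, adjusted p = 0.00155) and MCTS1, a partner of DENR in reinitiation (-0.20, adjusted p = 0.00530, a call lost under scaling by library totals). Under that scaling all 6 log2 fold changes were smaller in size, at -0.18 for DDX3X and -0.13 for MCTS1. They were -0.072 for DHX29, -0.072 for BZW1, -0.038 for BZW2 and -0.042 for CDC123. Of 5 poly(A)-binding proteins and partners 3 were higher and 1 was lower, with PABPC1, the main cytoplasmic form, at 0.15, adjusted p = 0.00116, and PAIP2, its inhibitor, at -0.16, adjusted p = 0.00104.

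The enzymes of hypusine and diphthamide, the modifications of eIF5A and eEF2, had 2 of 8 lower and 1 higher, with DPH5 at 0.21, adjusted p = 5.29e-04, and DPH2 at -0.31, adjusted p = 0.00477, a call lost against R1881 libraries 51 to 55 alone. Of 8 mitochondrial translation factors 1 was lower and 2 were higher. GFM1, the mitochondrial elongation factor G, had 99.4 to 112 CPM with the combination and 139 to 169 CPM with R1881 (log2 fold change -0.56 ± 0.041 (SE), adjusted p = 3.03e-09), and the release factor MTRF1 was at 0.22, adjusted p = 0.0153, a call lost against either R1881 run alone. The 3 selenocysteine factors had unadjusted p-values of 0.119 to 0.473 by limma, with EEFSEC, the elongation factor of selenocysteine, at 0.21, adjusted p = 0.195, and SECISBP2L at 0.045, adjusted p = 0.544. Members and lists share reads with neighbours in places, since 12 of 57 members overlap another annotated gene on the same strand and 28 on the other, and whether the counting used strand is not given in the sources used here.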

How the data were processed

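RNA from 15 LNCaP libraries was sequenced by the authors as 50-base single reads and, per the labels, sequencing runs were converted with bcl2fastq (2.17), aligned with STAR and counted with featureCounts, whose versions and annotation are not given in the sources used here. Groups were taken from the sample labels (5 combination, 10 R1881, 1 nM R1881), since the methods of the study exchange the 2 group sizes and give R1881 in another unit. The authors' deposited table holds a signal per gene, called CPM here, in which the reads of each library are scaled by a single factor. Whole reads were recovered for 100% of values within a tolerance of 0.001 reads (22177686 reads per library on average).

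Because the values were scaled, limma (3.58.1, R 4.3.3) was run on log2(CPM + 0.5) of all 17272 genes without a filter. Fold changes are on this scale and understate changes of low genes. edgeR (4.0.16) and DESeq2 (1.42.0) on the recovered reads were alternatives, as were pseudocounts of 0.1 and 1, a minimum mean of 1 CPM, scaling by library totals, a replicate block, either R1881 run, each library left out, combination replicates 3 and 4 left out together, and a GC correction (natural spline, 5 degrees of freedom per library, 13955 genes). The tests were checked on simulated data.

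The protein-coding EIF4EBP1 and EIF4EBP2, whose names end like those of pseudogenes, were kept. The members and lists were chosen with earlier results of these data known. Fuller values were given for members with an absolute log2 fold change of at least 0.5 past the test, for the member of smallest p in each complex and the strongest against its majority, for 12 fixed members, and for up to 2 genes per list. Fuller values of EIF2B1, EIF2B2, EIF2B3, EIF3B, EIF3H, EIF3J, EIF2B5, EIF4B and other members outside this rule were added after their values were seen. The background at 10 CPM and the split by annotated start were also added after seeing the data. A further luminal marker is not reported here. Gene positions and GC content are from GENCODE version 44, and start windows from RefSeq (GRCh38.p14). The methods of the study call the libraries biological replicates, but what was separate between them is not given in the sources used here, so p-values measure the spread between libraries, which may be technical in part. By a chi-square comparison of reads, every pair of libraries of a group differed by more than the sampling noise.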

Additional observations from a re-analysis of the deposited data

Results flagged for a closer look

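In 9 of 168 groups of values, 1 library lay far from the others of its group, where chance alone gives about 1 in 20 groups, and 8 of the 9 were combination replicate 4. This library was the highest of the combination for EEF1D at 301.0 CPM (others 112 to 160 CPM), EEF2 at 4327 CPM (1527 to 2146 CPM), EIF3G at 141.9 CPM (68.3 to 89.5 CPM), EIF3C at 276.2 CPM (220.4 to 235 CPM) and EIF3CL at 272.7 CPM (217 to 232 CPM). It was the lowest for EIF2S3 at 260.1 CPM (307 to 324 CPM), EIF4E2 at 76.62 CPM (87.8 to 91.9 CPM) and the androgen-induced gene FKBP5 at 133.2 CPM (154 to 162 CPM). In the R1881 group, replicate 6 was the highest for EIF5A at 438.3 CPM (360.3 to 395 CPM). Without combination replicate 4, 23 members were lower and 17 were higher. Over all genes of the table, leaving out this library raised the number of calls in each direction.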

How the results depend on the processing

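The counts of members called stayed within 1.5 times of 23 lower and 15 higher under all 27 alternatives (22 to 24 lower and 14 to 17 higher with 1 library left out), and 8 or 9 of the 12 ratios passed under each of their alternatives. Scaling by library totals moved the median log2 fold change of complexes to -0.174 for the eEF2 modifiers, 0.042 for eIF1 and eIF1A, -0.112 for eIF2B, 0.165 for eIF3, 0.022 for eIF4B and eIF4H, 0.214 for the eIF4E-binding proteins, -0.061 for eIF4F and -0.165 for eIF5A. After the GC correction it was -0.159 for eIF2 and 0.120 for eIF3, and with the replicate block added -0.165 and 0.117. Without combination replicates 3 and 4 it was -0.150 for eIF2B and 0.041 for eIF3, and against the R1881 libraries 71 to 75 only 0.035 for eIF3. With 1 library left out it ranged from -0.193 to -0.147 for eIF2B and from 0.0097 to 0.116 for eIF3, both set by combination replicates 3 and 4.

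Members that did not pass the test changed sign in places, and the cause was not tested. Under scaling by library totals this held for EIF1 (0.011), EIF1AD (0.059), EIF2B5 (0.063), EIF3K (0.028) and EIF5 (0.015). Against the R1881 libraries 51 to 55 only it held for EIF1AD (0.078), EIF2A (-0.022), SECISBP2L (-0.012) and the ratio of EEF1A2 to EEF1A1 (0.029), and against 71 to 75 only for EEF1D (-0.110), EIF2B5 (0.0071), EIF3G (-0.012) and EIF5 (0.056). EIF2B5 was 0.0037 by DESeq2, 0.0022 with the GC correction, 0.0079 with the GC correction and replicate block, and 0.0090 without combination replicates 3 and 4, where EEF1D was -0.089. EIF4G3 was -0.0044 with the GC correction and replicate block. With 1 library left out, the log2 fold change ranged from -0.072 to 0.33 for EEF1A2, -0.208 to 0.148 for EEF1D, -0.028 to 0.0069 for EIF1AD, -0.010 to 0.068 for EIF2A, -0.025 to 0.0078 for EIF2B5, -0.064 to 0.198 for EIF3G, -6.6e-05 to 0.060 for EIF4G3 and -0.320 to 0.120 for the ratio of EEF1A2 to EEF1A1.

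The replicate numbers were not taken as pairs: deviations of same-numbered libraries correlated by -0.139 to 0.335, and 0 of 5 combination libraries correlated best with their own number. With the replicate block, 20 members were lower and 12 higher, and EEF1D was -0.0087. The block lowered the number of calls in each direction over all genes of the table as well. At these depths all members but EIF4A1 had a mean above 10 CPM. Library run and treatment cannot be told apart.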
